A study of Mus musculus with 7 samples.

Results

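The 10 genes described here, C1qa, C1qb, C1qc, Vcam1, Slc40a1, Cd5l, Itgad, Spic, Hmox1 and Fcna, are genes that macrophages of the splenic red pulp express, and they were followed through RNA-seq libraries of CD4 T cells. They were picked by gene symbol from the 34745 genes of the deposited expression table, and all 10 were found there on 1 row each. The choice was made with the values of mutant against wild-type libraries already known, so the differences between the genotypes given for these 10 genes are a description of the libraries and carry no test. The first group held 4 male C57BL/6 mice aged 8 weeks heterozygous for an activating allele, labelled gain of function (GOF), of Pik3cd, the gene of the p110delta catalytic subunit of phosphoinositide 3-kinase. The second held 3 wild-type (WT) male C57BL/6 littermates of the same age. Each library holds total RNA of splenic naive CD4 T cells, taken from an untreated mouse without culture by negative selection, a procedure in which antibodies remove the other cells and the wanted cells stay untouched. Neither the amino acid change of the allele nor the antibodies of the selection were available from the labels, and nothing there restricts the allele to a cell type.

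Red pulp macrophages clear aged red blood cells from the blood of the mouse. They take the cells up, split the haem ring with haem oxygenase 1, the product of Hmox1, and return the iron to the plasma through ferroportin, the product of Slc40a1, the exporter of iron from cells. SPIC, an ETS family transcription factor related to PU.1, is needed for these macrophages to form in the mouse, and VCAM1 is 1 of their surface markers. Naive CD4 T cells are not known for expressing these genes as a group, while Hmox1 can be induced by stress in many cell types.

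The libraries held 14945520 to 16293539 counts in GOF and 14497957 to 15015783 counts in WT. The 10 genes together took 6520, 1779, 7237 and 1938 counts in GOF replicates 1 to 4, and 177, 168 and 177 counts in WT replicates 1 to 3. In CPM (counts per 1000000 counts, with library totals scaled by the TMM method) these sums were 424, 113.5, 435 and 124.5 in the GOF libraries and 12.7, 11.6 and 12.3 in the WT libraries. GOF replicates 1 and 3 therefore stood apart from GOF replicates 2 and 4, and each GOF library lay above each WT library. Markers of the labelled cell type were present, since all 12 CD4 T cell genes examined were detected in every library, with summed levels of 8071 to 8720 CPM in GOF and 6233 to 6277 CPM in WT. Cd4, named after its values were seen, stood at 1064, 1136, 1063 and 1162 CPM in GOF and at 698, 855 and 711 CPM in WT. In such bulk samples more macrophages in a sample and more RNA of these genes per cell cannot be told apart.

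Promoters are shown for 4 of the 5 members that had a RefSeq promoter entry. These 4 are the ones that held the PU box, GAGGAA, which SPIC and PU.1 bind, so the display depends on the motif. The 250 bases before the RefSeq start site are given 5′ to 3′ on the strand of the gene, on build GRCm38.p6, with each GAGGAA, or TTCCTC where the box lies on the opposite strand, in capitals. The stretches are chr4:136886201-136886450 (minus strand) for C1qb, chr4:136892915-136893164 (minus strand) for C1qc, chr2:25627975-25628224 (minus strand) for Fcna and chr3:87357631-87357880 (plus strand) for Cd5l.
C1qb: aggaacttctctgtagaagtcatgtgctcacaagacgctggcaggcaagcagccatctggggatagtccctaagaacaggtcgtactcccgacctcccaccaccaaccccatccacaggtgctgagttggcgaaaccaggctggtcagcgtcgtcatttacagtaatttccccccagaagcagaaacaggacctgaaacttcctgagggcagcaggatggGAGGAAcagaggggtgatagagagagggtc
C1qc: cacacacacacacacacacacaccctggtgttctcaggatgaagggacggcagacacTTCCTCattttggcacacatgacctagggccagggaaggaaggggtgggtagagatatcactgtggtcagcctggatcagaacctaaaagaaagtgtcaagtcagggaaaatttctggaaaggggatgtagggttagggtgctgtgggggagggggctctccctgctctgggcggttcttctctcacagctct
Fcna: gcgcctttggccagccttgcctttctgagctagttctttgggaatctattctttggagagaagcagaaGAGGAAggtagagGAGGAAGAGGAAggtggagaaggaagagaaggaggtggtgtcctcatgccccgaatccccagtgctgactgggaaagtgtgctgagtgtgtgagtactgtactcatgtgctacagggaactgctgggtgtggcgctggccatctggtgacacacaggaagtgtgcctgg
Cd5l: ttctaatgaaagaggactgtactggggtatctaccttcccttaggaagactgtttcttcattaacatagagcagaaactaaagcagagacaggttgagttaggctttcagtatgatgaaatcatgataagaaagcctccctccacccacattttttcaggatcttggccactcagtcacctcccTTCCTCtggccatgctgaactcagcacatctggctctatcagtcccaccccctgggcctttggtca
C1qb held 1 PU box, at bases -30 to -25 from the start site, C1qc held 1 at -193 to -188 and Cd5l 1 at -66 to -61. Fcna held 3 within a purine-rich stretch, at -182 to -177, -169 to -164 and -163 to -158. Of 32851 promoters of the same length 23.3% held at least 1 PU box on either strand and 0.429% held 3 or more. The RefSeq stretch for Spic held none, but it lies wholly inside the deposited Spic locus, downstream of that locus's start, and the first RefSeq exon bases after it were not found in the GENCODE M21 transcripts of Spic. The stretches of C1qc and Fcna reach into the deposited loci, whose starts lie further upstream than those of RefSeq. None of the motif matches overlapped another. RefSeq promoter entries were matched by symbol for 5 of the 10 genes, and a letter match describes the sequence and does not show binding. The MAF recognition motif TGCTGA, searched on both strands, occurred in C1qb, Cd5l, Fcna and Spic, against 16.1% of all promoters. The core of the antioxidant response element, TGACNNNGC, which NRF2 and BACH1 bind with small MAF proteins, occurred in C1qb, against 10.2% of all promoters. No AP-1 site, TGAGTCA, was present in any of the 5 stretches, against 4.46% of all promoters, and E-boxes, CACGTG or CATGTG, were present in C1qb, C1qc and Fcna, against 17.6%.

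Among the transcription factors, Spic (ENSMUSG00000004359, mm10 chromosome 10, 88674772 to 88685015, a protein-coding gene) had the lowest level per length of the 10 in GOF. It reached 9.82, 3.45, 5.41 and 4.31 CPM in GOF replicates 1 to 4, against 0.574, 0.550 and 0.696 CPM in WT replicates 1 to 3. The groups did not overlap, and only GOF replicate 1 stood out among the mutants. Spic averaged 5.75 ± 2.83 CPM in GOF (SD, n = 4) and 0.607 ± 0.0779 CPM in WT (SD, n = 3), a 9.47-fold difference and a log2 fold change of 3.22 with a standard error (SE) of 0.45. Behind these levels stood 151, 54, 90 and 67 counts in GOF and 8, 8 and 10 counts in WT.

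Of the iron recycling genes, Hmox1 (ENSMUSG00000005413, mm10 chromosome 8, 75093591 to 75100596, a locus that differs from that of GENCODE M21) was the only member with more than 1 CPM in WT. It was measured at 94.0, 19.5, 99.8 and 22.8 CPM in the GOF libraries and at 8.97, 7.29 and 10.4 CPM in the WT libraries. The lowest GOF library lay 1.87-fold above the highest WT library, the narrowest gap of the 10 genes, and GOF replicates 1 and 3 lay far above 2 and 4. The means were 59.0 ± 43.8 CPM in GOF (SD, n = 4) and 8.90 ± 1.57 CPM in WT (SD, n = 3), a 6.63-fold difference and a log2 fold change of 2.73 (SE 0.62). Without GOF replicates 1 and 3 the log2 fold change was 1.24, and without GOF replicates 2 and 4 it was 3.46.

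Slc40a1 (ENSMUSG00000025993, mm10 chromosome 1, 45908068 to 45926523), the iron exporter, was nearly undetected in WT. It had 47.0, 12.1, 42.1 and 9.57 CPM in GOF, against 0.287, 0.344 and 0 CPM in WT, where 9 counts in all were found. All GOF libraries were above all WT libraries, with the lowest GOF library 27.8-fold above the highest WT library. Its means were 27.7 ± 19.6 CPM in GOF (SD, n = 4) and 0.210 ± 0.184 CPM in WT (SD, n = 3), a 132-fold difference whose size rests on those 9 counts.

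The genes of recognition and clearance came next. C1qa, C1qb and C1qc encode the 3 chains of C1q, the molecule that starts the classical complement pathway, and lie side by side on the minus strand of mm10 chromosome 4 within 18675 bases, with no other protein-coding gene between them. C1qa (ENSMUSG00000036887, 136895917 to 136898803) had 42.1, 11.9, 51.0 and 15.2 CPM in GOF and 0.215, 0.619 and 0.139 CPM in WT. C1qb (ENSMUSG00000036905, 136880129 to 136886187) had 34.9, 9.44, 45.6 and 12.5 CPM in GOF and 0.287, 0.619 and 0.209 CPM in WT. The third chain, C1qc (ENSMUSG00000036896, 136889804 to 136893065), had 47.0, 13.2, 47.7 and 12.6 CPM in GOF and 0.287, 0.963 and 0.0696 CPM in WT. The groups did not overlap for any of the 3 chains, with the narrowest gap between the lowest GOF and the highest WT library, 13.1-fold, for C1qc, and WT replicate 2 held the highest WT value. The fold between means was 92.6 for C1qa, 68.9 for C1qb and 68.5 for C1qc, resting on 14, 16 and 19 WT counts. Of the 19 for C1qc, 14 lay in WT replicate 2, and without that library the log2 fold change was 7.34 for C1qc, against 6.06 with all libraries, and 7.34 for C1qa, against 6.49. The protein-coding genes on either side of the cluster, Ephb2 and Epha8, were below 1 CPM in every library, with at most 0.386 and 0.120 CPM in GOF and 0.718 and 0.144 CPM in WT.

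Per length, the 3 chains had the same order in every GOF library. The share of C1qc was lower in GOF replicates 3 and 4 than in 1 and 2, and that of C1qb was higher. On the per-length scale of the deposited FPKM values, C1qa made up 42.9%, 43.5%, 43.3% and 45.7% of the summed C1q signal in GOF replicates 1 to 4, C1qb 34.0%, 33.1%, 37.1% and 36.0%, and C1qc 23.2%, 23.4%, 19.6% and 18.3%. The WT libraries held 11, 32 and 6 C1q counts in all, too few for such shares to be read. The length the authors divided by was 2149 bases for C1qc, whereas the longest coding transcript of GENCODE M21 has 1203, so the share of C1qc depends on that length.

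Fcna (ENSMUSG00000026938, mm10 chromosome 2, 25624666 to 25628030) encodes ficolin A, a lectin that starts the lectin pathway of complement. Its levels were 27.2, 7.47, 27.6 and 7.26 CPM in GOF, against 0.933, 0.206 and 0.209 CPM in WT. The 19 WT counts included 13 in WT replicate 1, so the 38.7-fold difference between the means of 17.4 ± 11.6 CPM in GOF (SD, n = 4) and 0.449 ± 0.419 CPM in WT (SD, n = 3) leans on that library. Without WT replicate 1 the log2 fold change was 6.33, against 5.26 with all libraries. Cd5l (ENSMUSG00000015854, mm10 chromosome 3, 87357881 to 87371073), which encodes a scavenger receptor cysteine-rich protein secreted by tissue macrophages, had 24.5, 5.42, 20.4 and 5.85 CPM in GOF and 0.215, 0.206 and 0 CPM in WT. Its 99.97-fold difference rests on 6 WT counts.

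The adhesion genes were Vcam1 and Itgad. Vcam1 (ENSMUSG00000027962, mm10 chromosome 3, 116109949 to 116129688) encodes a ligand of the integrin alpha4 beta1 that is also found on activated endothelium and on stroma. It stood at 78.4, 22.5, 73.8 and 26.0 CPM in GOF and at 0.933, 0.550 and 0.557 CPM in WT, with means of 50.2 ± 30.0 CPM (SD, n = 4) in GOF and 0.680 ± 0.219 CPM (SD, n = 3) in WT. The lowest GOF library lay 24.1-fold above the highest WT library. Itgad (ENSMUSG00000070369, mm10 chromosome 7, 128154376 to 128223816) encodes the integrin alpha D chain, CD11d, which pairs with the beta2 chain and is a surface marker of red pulp macrophages. It had 18.9, 8.61, 21.4 and 8.42 CPM in GOF, while its 3 WT counts all lay in WT replicate 2, at 0.206 CPM, and WT replicates 1 and 3 had 0. The ratio of summed counts was 206, with an exact 95% counting interval of 70.4 to 1002 that leaves out the spread between mice. Antisense or opposite-strand genes overlap Vcam1, Fcna and Itgad, and of these Cox6a2, which overlaps Itgad, had 15 counts in GOF and 1 in WT, while the others that the table lists had 0.

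**Figure D1:**
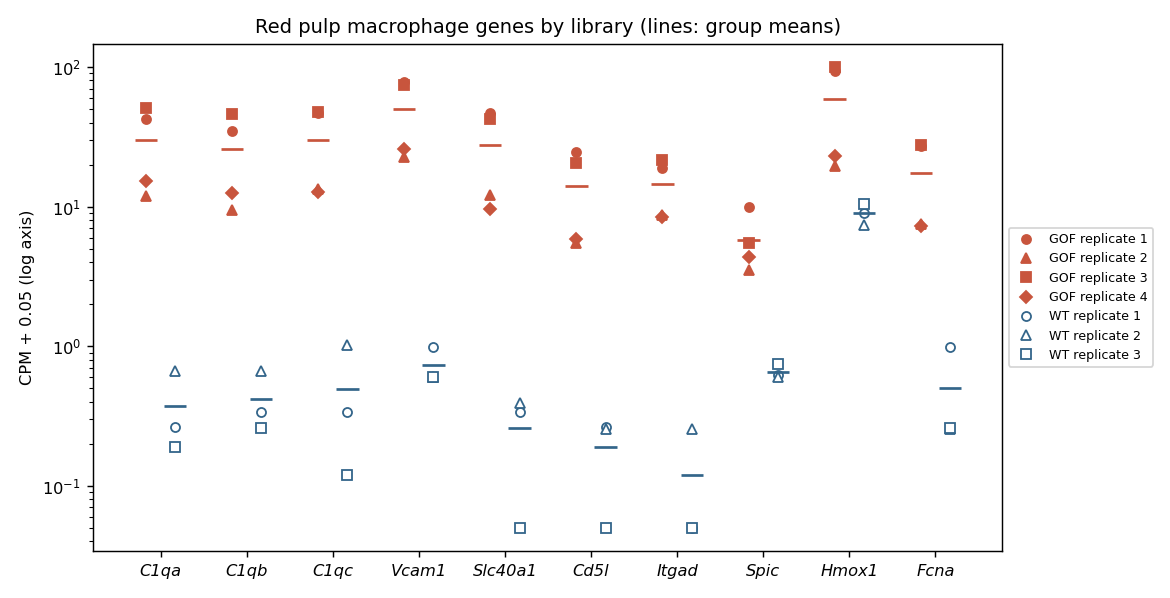
CPM of each of the 10 genes plus 0.05, on a log axis, in the 4 GOF libraries (filled) and the 3 WT libraries (open), with lines at the group means. Every GOF point lies above every WT point of the same gene, with the narrowest gap for Hmox1, and GOF replicates 1 and 3 (circles and squares) lie above GOF replicates 2 and 4 for every gene.

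All 10 genes passed the low-count filter. Of the 12668 tested genes 16.8% were called higher in GOF and 31.3% in either direction (edgeR quasi-likelihood, Benjamini-Hochberg adjusted p under 0.05). In all 10 members every GOF library lay above every WT library, as in 21.5% of tested genes. Since the members were chosen on this contrast, nothing is read from that count. The median log2 fold change was 6.13 over the 10 genes and 0.01 over all tested genes. Without GOF replicates 1 and 3, the log2 fold changes of the 10 genes ran from 1.24 for Hmox1 to 6.76 for Itgad, and without GOF replicates 2 and 4 from 3.46 for Hmox1 to 8.02 for Itgad.

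Per length, C1qa had the highest level in GOF, at 29.6 ± 19.2 FPKM as deposited (SD, n = 4). C1qb followed at 24.1 ± 16.5 FPKM, Hmox1 at 21.8 ± 16.2 FPKM, C1qc at 14.4 ± 9.51 FPKM and Fcna at 11.4 ± 7.60 FPKM. Lower levels were found for Cd5l at 7.07 ± 4.98 FPKM, Vcam1 at 5.32 ± 3.20 FPKM, Itgad at 2.83 ± 1.35 FPKM, Slc40a1 at 2.64 ± 1.87 FPKM and Spic at 1.17 ± 0.582 FPKM. Neighbours in this order differed by less than the larger SD of the pair. Within each GOF library, however, C1qa was the highest of the 10 and C1qc the fourth, whereas Hmox1 lay above C1qb in GOF replicate 1 and below it in the other GOF libraries. In WT, Hmox1 led in every library, at 3.11, 2.55 and 3.70 FPKM, and none of the other members passed 0.576 FPKM. The order depends on the length used. The authors' lengths were 9653 bases for Vcam1 and 10761 for Slc40a1, where the longest coding transcripts of GENCODE M21 have 3469 and 3370. Divided by those lengths, Hmox1 led at 38.5 and Vcam1 reached 14.8 FPKM, ahead of Fcna at 12.95 FPKM.

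The members also varied together among the GOF mice, as markers of neutrophils and red blood cells did. Summed markers of B cells, of NK and CD8 T cells, and of stroma and endothelium had the same order over a smaller range. The ratio of the highest to the lowest GOF library was 2.55 for Itgad, 2.85 for Spic, 3.48 for Vcam1 and 3.79 for C1qc, and it reached 4.91 for Slc40a1 and 5.13 for Hmox1, with a median of 4.05. Among 11308 tested genes with at least 1 CPM in every GOF library the median ratio was 1.29, and 4.79% had a ratio at or above that of Itgad. GOF replicate 1 or 3 held the highest value of each member, and GOF replicate 2 or 4 the lowest. Spic departed from the others in GOF replicate 3, where it stood at 94.2% of its own GOF mean, against 145% to 178% for the other members. As a share of the counts of the 10 genes, Spic took 2.32% in GOF replicate 1 (95% Wilson interval 1.98% to 2.71%), 3.04% in replicate 2 (2.33% to 3.94%), 1.24% in replicate 3 (1.01% to 1.53%) and 3.46% in replicate 4 (2.73% to 4.37%). These intervals cover counting error only. The interval of replicate 3 did not overlap those of the other 3 libraries.

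**Figure D2:**
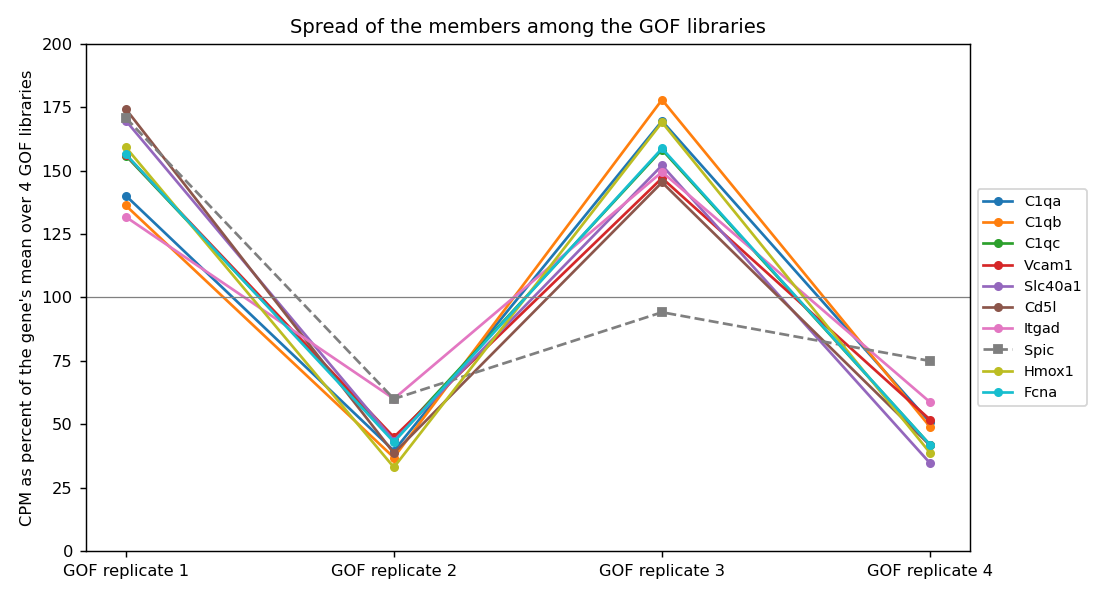
CPM of each member in the 4 GOF libraries as a percentage of its own mean over them, with 1 line per gene. Spic (dashed) stays at 94.2% in GOF replicate 3, where the other members lie between 145% and 178%. Lines join the libraries only to guide the eye, since the mice have no order.

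Hmox1 set the make-up of the WT counts. It supplied 22.2%, 17.1%, 23.0% and 18.3% of the counts of the 10 genes in GOF replicates 1 to 4, against 70.6%, 63.1% and 84.8% in WT replicates 1 to 3. The lowest of the WT intervals ran from 55.6% to 70.0% and the highest of the GOF intervals from 22.0% to 23.9% (95% Wilson). Without Hmox1 the other 9 genes summed to 330.0, 94.1, 335 and 102 CPM in GOF and to 3.73, 4.27 and 1.88 CPM in WT. Vcam1 took 18.5%, 19.8%, 16.97% and 20.9% of the member counts in GOF replicates 1 to 4 and 7.34%, 4.76% and 4.52% in WT. Itgad took 4.46% and 4.93% in GOF replicates 1 and 3 (intervals 3.99% to 4.99% and 4.46% to 5.46%) and 7.59% and 6.76% in GOF replicates 2 and 4 (6.45% to 8.91% and 5.72% to 7.96%).

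**Figure D3:**
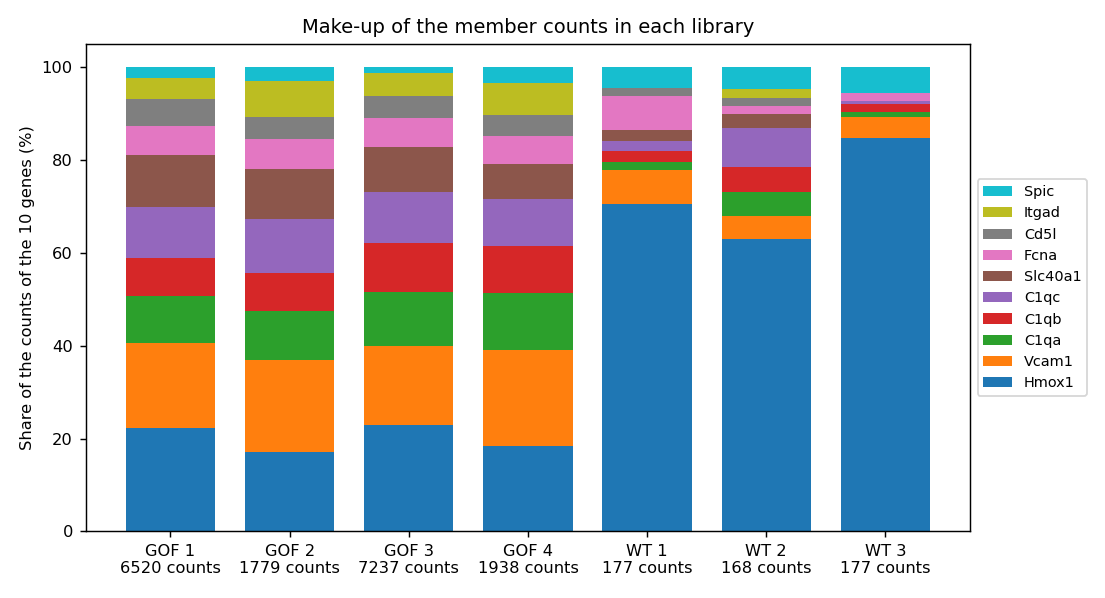
Share of each gene in the counts of the 10 genes, in percent, for the 4 GOF libraries and the 3 WT libraries, with the number of counts under each bar. Hmox1 supplies 17.1% to 23.0% in GOF and 63.1% to 84.8% in WT, where the bars rest on 168 to 177 counts.

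Other genes of macrophages were then examined, from a list written with earlier results of these data known. Of 24 genes 22 were tested, and 17 rose and 0 fell in GOF (edgeR, adjusted p under 0.05), with a median log2 fold change of 3.06 and summed levels of 154 to 457 CPM in GOF and 58.0 to 101 CPM in WT, where 16.8% of all tested genes rose and 14.5% fell. Axl, a receptor tyrosine kinase that binds dying cells through GAS6, had 63.5, 20.8, 65.1 and 22.7 CPM in GOF, against 0.746 ± 0.310 CPM in WT (SD, n = 3; log2 fold change 5.83, SE 0.61, edgeR adjusted p = 0.000179). Csf1r, the receptor for M-CSF, reached 61.4, 21.8, 63.7 and 24.4 CPM in GOF, against 2.80, 3.44 and 2.16 CPM in WT (log2 fold change 3.93, SE 0.48, edgeR adjusted p = 0.000417). Mrc1, the mannose receptor, rose to 12.5 ± 8.21 CPM in GOF (SD, n = 4), against 5 counts in WT (edgeR adjusted p = 0.00117). Fcgr4, an activating Fc receptor, had 200 counts in GOF and 1 in WT, 136 times as many per total count (exact 95% counting interval 24.0 to 5377; edgeR adjusted p = 0.000354). The same split of the mutants was seen, with GOF replicates 1 and 3 above 2 and 4 for these 4 genes. The 5 tested genes that did not pass, named after their values were seen, were Cd163, Fcgr3, Cd68, Tlr4 and Marco. Cd68, a lysosomal protein of macrophages, had 22.2, 6.51, 23.2 and 13.0 CPM in GOF and 18.4, 11.3 and 11.1 CPM in WT, so that its groups overlapped. Marco, a scavenger receptor of marginal zone macrophages, had 1.09 to 5.41 CPM in GOF and 0.348 to 2.58 CPM in WT. The count of 17 fell to 11 without GOF replicate 1, to 11 without GOF replicate 3 and to 8 without both.

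Calls among genes of haem and iron handling outside the 10 went both ways. Of 26 tested, 5 rose and 3 fell, with a median log2 fold change of -0.17, and the shares were near those of all tested genes, 16.8% rising and 14.5% falling. The list summed to 2806 to 3383 CPM in GOF and 3425 to 3656 CPM in WT, and 10 of the 26 fold changes were positive. Every GOF sum lay below every WT sum, but the gap, from 3383 to 3425 CPM, was narrow. Leaving out a single gene, such as the abundant Pcbp2 or Gclc, made the groups overlap. Pcbp2 had 529, 479, 562 and 499 CPM in GOF and 791, 660 and 765 CPM in WT. Trf, the plasma iron carrier transferrin, had 38.0, 11.1, 44.8 and 15.0 CPM in GOF and 2.58, 2.27 and 0.139 CPM in WT (log2 fold change 4.03, SE 0.76, edgeR adjusted p = 0.00404). Steap3, a ferrireductase of endosomes, rose to 3.00 ± 0.682 CPM in GOF (SD, n = 4), against 0.628 ± 0.173 CPM in WT (SD, n = 3; edgeR adjusted p = 0.00251). Blvra, biliverdin reductase A, which acts on the product of haem oxygenase, stood at 28.4, 26.9, 27.8 and 29.3 CPM in GOF and at 16.9, 15.3 and 17.8 CPM in WT (log2 fold change 0.75, SE 0.11, edgeR adjusted p = 0.00134). Unlike the 10 genes, Blvra differed by 1.09-fold at most among the GOF libraries. Keap1, the adaptor that targets NRF2 for breakdown, rose by 0.36 on the log2 scale (edgeR adjusted p = 0.0143), and that call was lost without WT replicate 3 (edgeR adjusted p = 0.0610) and without either pair of GOF replicates (0.105 without 1 and 3, 0.0577 without 2 and 4). Lrp1, an endocytic receptor that takes up haem bound to hemopexin, was the fifth that rose (edgeR adjusted p = 0.0216). The count of 5 became 3 without WT replicate 3 and without GOF replicates 1 and 3.

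Bach1, a transcriptional repressor of Hmox1 that haem inactivates, fell in GOF. It had 38.2, 31.0, 31.1 and 26.2 CPM in GOF, against 54.7, 85.6 and 72.8 CPM in WT (log2 fold change -1.17, SE 0.17, edgeR adjusted p = 0.00116). Every GOF library lay below every WT library. Gclc, the catalytic subunit of glutathione synthesis, fell to 83.1 ± 2.90 CPM in GOF (SD, n = 4), against 140.2 ± 0.743 CPM in WT (SD, n = 3; log2 fold change -0.75, edgeR adjusted p = 0.000117), and Pcbp2, an RNA-binding protein that also carries iron, fell by 0.51 (edgeR adjusted p = 0.00344). The ferritin chains Ftl1 and Fth1, named after their values were seen, were not called. Ftl1 averaged 635 ± 94.4 CPM in GOF (SD, n = 4) and 629 ± 102 CPM in WT (SD, n = 3), and Fth1 719 ± 90.3 CPM in GOF and 699 ± 102 CPM in WT, with overlapping groups.

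Among complement genes other than C1q and ficolin A, 6 of 15 tested rose and 1 fell, where 16.8% of all tested genes rose and 14.5% fell. The median log2 fold change was 0.67, and 12 of the 27 listed genes did not pass the low-count filter. Cfp, properdin, which stabilises the alternative pathway convertase, had 37.5, 21.1, 33.2 and 22.6 CPM in GOF and 6.03, 9.43 and 7.37 CPM in WT (log2 fold change 1.91, SE 0.26, edgeR adjusted p = 0.000718). Cr2, complement receptor 2, which is also a B cell marker, averaged 7.87 ± 2.63 CPM in GOF (SD, n = 4) and 0.437 ± 0.534 CPM in WT (SD, n = 3; edgeR adjusted p = 0.00260). Calr, the chaperone calreticulin, rose by 0.39 (edgeR adjusted p = 0.00631) and C2, the component cleaved by C1s, by 1.82 (edgeR adjusted p = 0.0131). Cd55, which speeds the decay of complement convertases on the cell's own surface, fell to 48.5 ± 4.31 CPM in GOF (SD, n = 4), against 101 ± 22.3 CPM in WT (SD, n = 3; log2 fold change -1.06, edgeR adjusted p = 0.000837). C1ra and C1s1, the proteases that C1q carries, named after their values were seen, reached at most 1.24 and 0.910 CPM in GOF and 0.757 and 0.933 CPM in WT. Without GOF replicates 1 and 3 the count of 6 became 2, and the calls of Calr and C2 were lost (edgeR adjusted p = 0.0850 and 0.137). The call of C2 was also lost after quantile normalization in limma (log2 difference 0.60, limma adjusted p = 0.0989).

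The integrin partners and ligands of the adhesion genes differed in how far they spread among the GOF mice. Itgb2, the beta2 chain with which CD11d pairs, stood at 638, 666, 645 and 635 CPM in GOF and at 229, 266 and 230.2 CPM in WT (log2 fold change 1.42, SE 0.08, edgeR adjusted p = 7.43e-06). Its values in GOF lay within 1.05-fold of each other, where Itgad ranged over 2.55-fold. Itgax, the CD11c chain encoded next to Itgad on chromosome 7, rose to 16.0, 7.98, 18.0 and 7.52 CPM in GOF, against 0.790, 0.0688 and 0 CPM in WT (edgeR adjusted p = 0.000995), and so shared the split of the mutants. Itgal, the alpha chain of LFA-1, and Itgb7 rose by 0.85 and 0.58 on the log2 scale (edgeR adjusted p = 0.00108 and 0.000566). Itga4, which encodes the alpha4 chain that binds VCAM1, had 481, 544, 423 and 415 CPM in GOF and 562, 696 and 604 CPM in WT (log2 fold change -0.41, SE 0.12, edgeR adjusted p = 0.0259), and Icam2 fell by 0.41 (edgeR adjusted p = 0.0494). Itgam, the CD11b chain, was the fifth that rose (edgeR adjusted p = 0.0046). In all, 5 of 9 rose and 2 fell, where 16.8% of all tested genes rose and 14.5% fell. The median log2 fold change was 0.58, and the calls of Itga4 and Icam2 were lost in 10 and 16 of 18 alternatives.

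**Figure D4:**
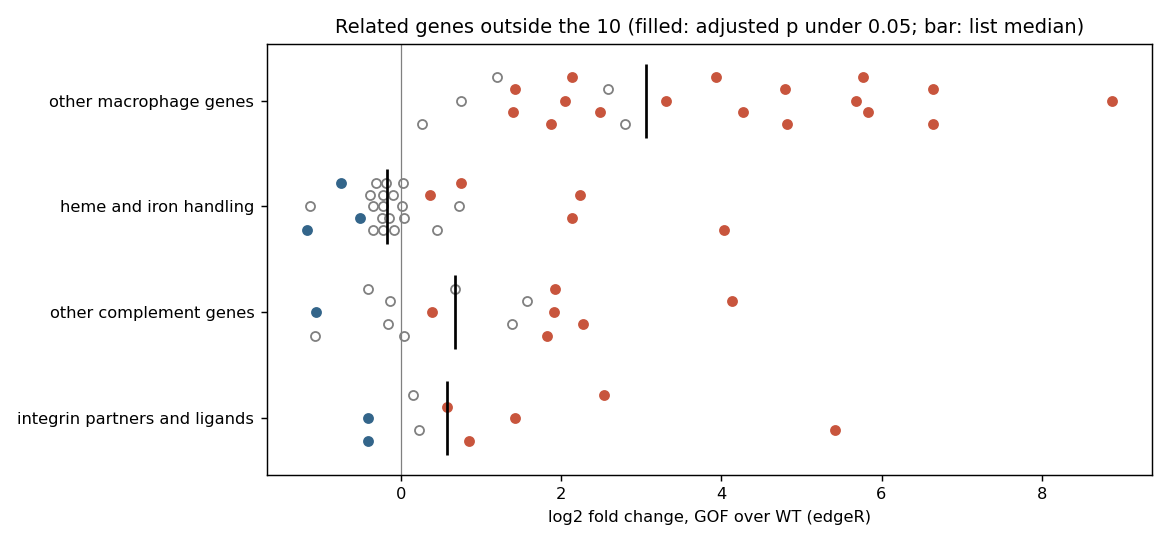
Log2 fold change of GOF over WT for each tested gene of the 4 related lists, filled where the edgeR adjusted p was under 0.05 (rising to the right, falling to the left), with a bar at the list median. The macrophage list has its median at 3.06 and the haem and iron list at -0.17. Vertical offsets within a list only separate the points.

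The genes whose profile over the 7 libraries came closest to the mean profile of the 10 members were found among 10912 genes with a mean of at least 2 CPM, by the root mean square difference of centred log2(CPM + 0.5) values. Hpgd, which breaks down prostaglandins, came first at 0.23 and had 15.2, 4.59, 14.1 and 3.73 CPM in GOF and 0.0718, 0.206 and 0 CPM in WT. Csf1r at 0.35, Mrc1 at 0.36 and Axl at 0.38 followed. The next were Ace, angiotensin-converting enzyme, at 0.39 with 0 counts in WT, Pld4, a phospholipase D family member, at 0.39, Fgr, a SRC family kinase of myeloid cells, at 0.43 and Plbd1 at 0.44. Among the members themselves Cd5l lay closest to their mean, at 0.11, and Spic and Hmox1 farthest, at 1.00 each.

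Markers of several other cell types were higher in GOF as well. The counts below stand against 16.8% of all tested genes rising and 14.5% falling. Of the 12 CD4 T cell genes 8 rose and 1 fell, with a median log2 fold change of 0.45. Of 10 neutrophil genes 9 rose, with summed levels of 63.0 to 210 CPM in GOF and 0.551 to 8.40 CPM in WT, and Camp at 0 in WT. These sums were 210.0, 63.05, 209.9 and 78.85 CPM in GOF replicates 1 to 4, the same split as in the members. For monocytes and dendritic cells 5 of 7 tested genes rose, and without Nr4a1, which T cells also induce, the other 11 genes of that list summed to 25.6 to 51.2 CPM in GOF and 5.63 to 9.29 CPM in WT, with Ace, Clec9a and Cd209a at 0 in WT. Of 10 B cell genes 6 rose, with sums of 685 to 1115 CPM in GOF and 356 to 448 CPM in WT, and without Ighm, which carried most of that sum, the list gave 88.4 to 176 CPM in GOF and 28.5 to 90.5 CPM in WT, so that the groups overlapped. Of 9 genes of NK cells and CD8 T cells 7 rose, with sums of 115 to 165 CPM in GOF and 59.1 to 72.2 CPM in WT. The CD8 chains, named after their values were seen, were the genes of that list that were not called, with 5.62 ± 1.16 CPM in GOF (SD, n = 4) and 9.66 ± 4.93 CPM in WT (SD, n = 3) for Cd8a, and 20.5 ± 3.46 CPM in GOF and 24.0 ± 1.90 CPM in WT for Cd8b1. For red blood cells 4 of 6 tested genes rose, with sums of 19.1 to 72.5 CPM in GOF and 4.38 to 18.5 CPM in WT, with Car1 and Epor among those at 0 in WT. This list also shared the split, at 68.15, 19.14, 72.48 and 23.52 CPM in GOF replicates 1 to 4. The B cell sums had it over a smaller range, at 1106, 685, 1115 and 757.9 CPM. So did those of NK and CD8 T cells (159.6, 115.4, 164.6 and 133.0 CPM) and of stroma and endothelium (267.9, 193.2, 273.7 and 206.3 CPM). GOF replicate 4 was highest for CD4 T cells, at 8720 CPM, and for monocytes and dendritic cells with Nr4a1 included, at 288.9 CPM. In the list of stroma and endothelium 1 of 5 tested genes rose, Stab2, a scavenger receptor of sinusoidal endothelium, at 7.09, 2.11, 7.15 and 2.57 CPM in GOF and 2 counts in WT, and 1 fell, Pecam1. Without Pecam1 that list summed to 4.40 to 12.8 CPM in GOF and 1.53 to 3.23 CPM in WT, and Pdgfra, Ccl19 and Ccl21a were at 0 in every library. No marker list was lower in GOF as a whole except that of stroma and endothelium with Pecam1 included (193 to 274 CPM in GOF, 364 to 425 CPM in WT). The part of these other cells in the values of the 10 genes was not tested.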

How the data were processed

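For every gene the deposited table gives a raw count and an FPKM value in each library, per the file headers. HISAT2 2.0.4, Cufflinks 2.1.1, Cuffdiff and build mm10 are named in the submitters' processing notes. Their roles, how reads were counted and whether strand was used are not stated. The deposited FPKM equalled the count divided by a length per gene and the library total, within 0.1% for 100% of genes with a positive value. The counts were tested with the edgeR 4.0.16 quasi-likelihood method in R 4.3.3 with filterByExpr, TMM scaling of the column totals and a 2-group model over all 7 libraries, with Benjamini-Hochberg adjustment over 12668 genes at 0.05, and CPM were computed with the same scaling. The fit was tested on simulated data. DESeq2 1.42.0 and limma 3.58.1 served as alternatives. SE is the log2 fold change divided by the root of the F statistic.

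The 10 members and all gene lists were chosen with earlier results of these data known. Members are given without a test. Named genes are the members, up to 4 genes past the threshold with the smallest p in each direction of each related list, and the 8 genes most like the members in profile. Other genes lie next to a member, are markers at 0 or carry a list's sum, complete a count of 5 or fewer, or are said to be named with their values in view. Each library is 1 mouse, and counting intervals leave out the spread between mice. Locations are the deposited mm10 loci, transcript lengths come from GENCODE M21 and promoters from RefSeq (GRCm38.p6).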

Additional observations from a re-analysis of the deposited data

How the results depend on the processing

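All 10 members kept their direction in the 18 alternatives, from which nothing is read, since they were chosen on this contrast. The log2 fold change of Hmox1 lay between 1.24 and 3.46 in them. Over all genes 2130 were higher and 1838 lower in GOF. These counts were 2524 and 1429 with total counts only, 2606 and 1393 in limma on log2(FPKM + 1) and 2672 and 1385 on log2(FPKM + 0.1), so that the balance of directions depends on the scale. Without GOF replicates 1 and 3 they were 1074 and 1050, and 8 other macrophage genes, 3 haem and iron genes and 2 complement genes were higher. Leaving out 1 library at a time gave 1615 to 2091 genes higher and 1374 to 1819 lower, 11 to 17 macrophage genes, 3 to 5 haem and iron genes and 4 to 6 complement genes higher, and 0 to 1 genes of integrin partners and ligands lower. That last count, 2 as reported, was 1 with RLE size factors, with upper quartile scaling, without a filter on low counts, without GOF replicates 2 and 4 and with the replicate block. It was 0 with total counts only, in limma on log2(FPKM + 1), on log2(FPKM + 0.1) and after quantile normalization, and without GOF replicates 1 and 3. The cause of these changes was not tested. With the replicate number of the titles as a block, 1646 genes were higher and 1549 lower. Same-numbered libraries showed no sign of pairing. The correlations of their deviations from the group means were 0.0295, 0.0911 and -0.0677 for numbers 1 to 3. Of the 3 GOF libraries 1, replicate 2, correlated best with its own number. So few correlations cannot exclude a shared litter or preparation. Log2 fold changes of members depend on the scale and on the libraries kept. That of Slc40a1 lay between 1.68, in limma on log2(FPKM + 1), and 7.69, without GOF replicates 2 and 4. On log2(FPKM + 1) those of Vcam1 and Spic were 2.41 and 0.92. That of Itgad lay between 1.85 and 10.77. The 10.77 was found without WT replicate 2, where no WT count remained and the value depends on the prior count. Depth limits the WT side, where Itgad, Cd5l and Slc40a1 had 3, 6 and 9 counts in all.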
